A study of Mus musculus with 14 samples.

Results

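The genes described here are 8 that encode proteins of the red cell surface: Rhd, Rhag, Kel, Ermap, Icam4, Cldn13, Ackr1 and Cd59a. They were chosen by symbol from their UMI counts scaled to the section total (CPM, a gene's counts per 1000000 counts of the section), across tissues, stages and C1qa genotypes, so those levels are given as a description without a test. All 8 were present in every section's gene table, out of 32589 features in the largest table and 19465 shared by all sections.

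Expression was measured with 10x Genomics Visium, in which gene probes on a tissue section are counted as unique molecular identifiers (UMIs) at barcoded spots that each cover several cells. The series holds 14 mouse sections in 10 groups, all from formalin-fixed tissue. Of the groups, 6 with 1 section each came from purchased wild-type mice: fetal liver at E13.5 and at E14.5, bone marrow at postnatal day 8 (P8), bone marrow at 89 weeks that was cut frozen and freed from bone without decalcification, bone marrow of a 6-month-old mouse decalcified with 0.5 M EDTA for 5 days, and an adult spleen whose age the labels do not give. The other 8 sections came from crosses between C1qa heterozygotes. They were 2 E14.5 fetal livers of each genotype, wild type or C1qa knockout (numbers 2 and 4), and 2 spleens of each genotype (numbers 1 and 2). The spleens came from mice that are 3 months old by the labels. A figure legend in the study's supplement gives these spleens a younger age, while its reporting summary gives 3 months for normal spleens. The knockout was inherited through the germ line and so is not limited to a cell type. C1qa encodes a chain of C1q, a complement component made mainly by macrophages.

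Erythroblasts mature in erythroblastic islands (EBIs), clusters around a central macrophage, in the fetal liver, bone marrow and splenic red pulp. As they mature they place blood group antigens on their surface. The Rh complex (Rhd and Rhag) and the Kell protein (Kel) sit in the membrane with the anion exchanger and the cytoskeleton, Icam4 is an adhesion ligand for integrins, Ackr1 binds chemokines, and Cd59a blocks the terminal complement complex. Ermap carries the Scianna antigens, and Cldn13 is a claudin of mouse erythroid cells.

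The promoters of 7 members were found in the RefSeq table (build GRCm38.p6), each from 250 bases before to 50 bases after the start set there. For Rhag, Kel, Ermap and Cd59a this start lies inside the bounds listed for the gene. Positions below are counted from the start of the window's own entry. The 4 printed here show how the members differ in GATA letters, the motif class read by the erythroid factor GATA1, and in CACCC letters, the class read by KLF1. Capitals mark AGATAA or TGATAA and also CACCC on either strand, so TTATCT or TTATCA and also GGGTG are the same motifs on the other strand. They belong to Rhd (chr4:134864286-134864585, plus strand), Kel (chr6:41704276-41704575, minus strand), Icam4 (chr9:21029182-21029481, plus strand) and Cd59a (chr2:104095551-104095850, plus strand).
Rhd: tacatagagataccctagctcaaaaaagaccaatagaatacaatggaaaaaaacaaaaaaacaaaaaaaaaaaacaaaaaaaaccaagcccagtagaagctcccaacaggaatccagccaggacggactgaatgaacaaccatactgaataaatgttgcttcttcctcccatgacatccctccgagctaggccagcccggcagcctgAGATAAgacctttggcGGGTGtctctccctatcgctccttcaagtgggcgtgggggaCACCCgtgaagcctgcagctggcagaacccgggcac
Kel: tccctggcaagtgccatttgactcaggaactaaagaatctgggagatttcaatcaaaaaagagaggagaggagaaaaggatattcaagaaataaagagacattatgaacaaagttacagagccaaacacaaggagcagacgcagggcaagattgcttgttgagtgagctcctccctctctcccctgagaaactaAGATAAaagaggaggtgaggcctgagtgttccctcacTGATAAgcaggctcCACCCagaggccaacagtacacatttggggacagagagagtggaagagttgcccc
Icam4: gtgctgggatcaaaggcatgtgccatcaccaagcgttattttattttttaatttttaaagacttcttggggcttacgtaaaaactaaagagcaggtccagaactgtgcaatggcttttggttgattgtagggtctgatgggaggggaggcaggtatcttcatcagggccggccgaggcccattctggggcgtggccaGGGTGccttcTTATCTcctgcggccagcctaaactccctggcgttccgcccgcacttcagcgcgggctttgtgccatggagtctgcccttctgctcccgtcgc
Cd59a: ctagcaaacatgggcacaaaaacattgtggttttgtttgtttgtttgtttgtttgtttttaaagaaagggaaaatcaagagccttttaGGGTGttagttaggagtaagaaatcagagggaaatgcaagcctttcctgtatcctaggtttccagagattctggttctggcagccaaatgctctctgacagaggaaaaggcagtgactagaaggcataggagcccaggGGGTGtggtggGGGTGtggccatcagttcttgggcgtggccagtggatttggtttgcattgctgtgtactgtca

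AGATAA or TGATAA occurred in 6 of the 7 promoters, against 18.6% of 32851 promoters of the same length. CACCC occurred in 7 of 7, against 57.5%, and both motifs together in 6 of 7, against 8.96%. The GATA letters lay 43 bases before the start in Rhd and in Icam4, 56 and 19 before it in Kel, 67 in Ermap and 31 in Rhag, whereas in Ackr1 they lay after the start. Those of Rhag lay inside the listed gene bounds. The Cd59a window held neither GATA motif. It held the longer CCACACCC, which contains CACCC, at 24 and 13 bases before the start, both inside the listed gene bounds. This longer form occurred in 3.56% of all promoters. CANNTG, the letters of an E-box, occurred in 5 of 7, against 72.3%. These matches describe letters in the windows and not binding.

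Spots on tissue in which 1000 or more genes were detected are called passing spots below, and over these the sections held 37167 to 56182915 UMIs in 15 to 2320 spots. The EDTA section had only 15 passing spots, so its values are listed but enter no comparison. The hepatocyte list (Alb, Afp and others) reached 0.5% of a spot's UMIs in all passing spots of both purchased fetal livers and in 94.4% and 96.6% of those of wild-type and knockout liver 2. It did so in only 29.8% of wild-type liver 4 and 62.5% of knockout liver 4, so a large part of those sections lay below this share. In P8 bone, 28.8% of passing spots reached 0.5% of the neutrophil list. In the spleens of the cross the pancreas list summed to 71.9 and 974 CPM in wild type against 4056 and 26447 CPM in knockout. C1qa was at 25.8 to 269 CPM in the wild-type sections of the cross and at 0.0548 to 0.189 CPM in the knockouts.

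Leaving the EDTA section aside, both proteins of the Rh complex were highest in the purchased fetal livers. Rhd, the Rh antigen itself, stood at 455 CPM in the purchased E14.5 liver, 435 CPM at E13.5, 266 and 106 CPM in wild-type livers 2 and 4, and 322 and 159.6 CPM in knockout livers 2 and 4. In bone marrow Rhd was at 162 CPM at P8, 163 CPM at 89 weeks and 565 CPM after EDTA (21 UMIs, 95% exact Poisson interval 350 to 864 CPM, which covers counting error only). In spleen it was at 19.4 CPM in the purchased adult, 89.4 and 45.9 CPM in wild type against 5.76 and 7.29 CPM in knockout. The purchased livers lay above the cross livers, the P8 and 89-week marrows lay within the range of the cross livers, and all spleens lay below. Rhag, the glycoprotein that carries Rhd to the membrane and conducts ammonia, stood at 483 and 501 CPM in the purchased E14.5 and E13.5 livers, 326 and 156 CPM in wild-type livers 2 and 4 and 296 and 172 CPM in knockout livers 2 and 4. Rhag was at 198 CPM in P8 marrow, 141 CPM at 89 weeks and 296 CPM after EDTA. Its spleen values were 28.2 CPM in the purchased adult, 64.0 and 30.3 CPM in wild type against 7.74 and 8.71 CPM in knockout. Both genes thus put the knockout spleens lowest, and P8 marrow was above 89-week marrow for Rhag but not for Rhd.

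Kel, a surface metallopeptidase, stood at 522 and 465 CPM in the purchased E14.5 and E13.5 livers, 489 and 204 CPM in wild-type livers 2 and 4 and 593 and 349.7 CPM in knockout livers 2 and 4. It was at 131 CPM in P8 marrow, 216 CPM at 89 weeks and 673 CPM after EDTA. In spleen Kel was at 16.6 CPM in the purchased adult, 127 and 63.2 CPM in wild type against 9.07 and 13.0 CPM in knockout. For Kel, unlike Rhag, the 89-week marrow was above P8 over all passing spots, an order that turned in neutrophil-list spots, as given below. Ermap, an immunoglobulin-like protein related to butyrophilins, was at 707 and 617 CPM in the purchased livers, 701 and 239.6 CPM in wild-type livers 2 and 4 and 852 and 345 CPM in knockout livers 2 and 4. It was at 231 CPM in P8 marrow, 356 CPM at 89 weeks and 673 CPM after EDTA. Its spleen values were 52.6 CPM in the purchased adult, 93.2 and 154 CPM in wild type (numbers 2 and 1) and 16.6 and 16.9 CPM in knockout. The 2 knockout spleens were closer to each other for Ermap than for any other member.

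Icam4, the Landsteiner-Wiener antigen, which binds integrins, had its highest values in the purchased livers, 174 CPM at E14.5 and 162 CPM at E13.5. It was at 69.4 and 50.5 CPM in wild-type livers 2 and 4 and 117 and 80.2 CPM in knockout livers 2 and 4. In marrow it was at 35.8 CPM at P8 and 32.1 CPM at 89 weeks, and in spleen at 5.10 CPM in the purchased adult, 28.6 and 18.5 CPM in wild type against 11.1 and 7.67 CPM in knockout. No UMI of Icam4 was counted after EDTA, where the floor of 3 counts equals 80.7 CPM, so a level below that could not be detected there. Cldn13 was at 204 and 153 CPM in the purchased livers, 224 and 66.3 CPM in wild-type livers 2 and 4, and 264 and 73.5 CPM in knockout livers 2 and 4. It was at 75.3 CPM in P8 marrow, 87.0 CPM at 89 weeks and 296 CPM after EDTA. In spleen Cldn13 was at 9.02 CPM in the purchased adult, 50.3 and 36.7 CPM in wild type against 3.78 and 5.48 CPM in knockout. Liver number 2 was far above number 4 in both genotypes for Cldn13.

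Ackr1, the Duffy antigen, which is also known from venular endothelium, followed another order. It stood at 25.0 and 30.8 CPM in the purchased E14.5 and E13.5 livers, 36.5 and 17.7 CPM in wild-type livers 2 and 4, and 58.5 and 41.6 CPM in knockout livers 2 and 4. In marrow it was at 6.51 CPM at P8, 38.7 CPM at 89 weeks and 80.7 CPM after EDTA, the last from only 3 UMIs. In spleen it was at 2.55 CPM in the purchased adult, 17.2 and 18.9 CPM in wild type against 8.97 and 5.59 CPM in knockout. The 89-week marrow was above both purchased livers for Ackr1, and P8 marrow was among the lowest sections. Cd59a was at 61.1 and 57.3 CPM in the purchased livers, 43.6 and 30.1 CPM in wild-type livers 2 and 4 and 47.0 and 33.1 CPM in knockout livers 2 and 4. It was at 28.3 CPM in P8 marrow, 15.3 CPM at 89 weeks, 14.1 CPM in the purchased adult spleen, 14.0 and 10.2 CPM in the wild-type spleens and 6.99 and 5.97 CPM in the knockout spleens. Cd59a had the narrowest range of the members over these 13 sections. After EDTA it was also at 0 in passing spots, and at 11.1 CPM (5 UMIs) over all in-tissue spots.

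**Figure D1:**
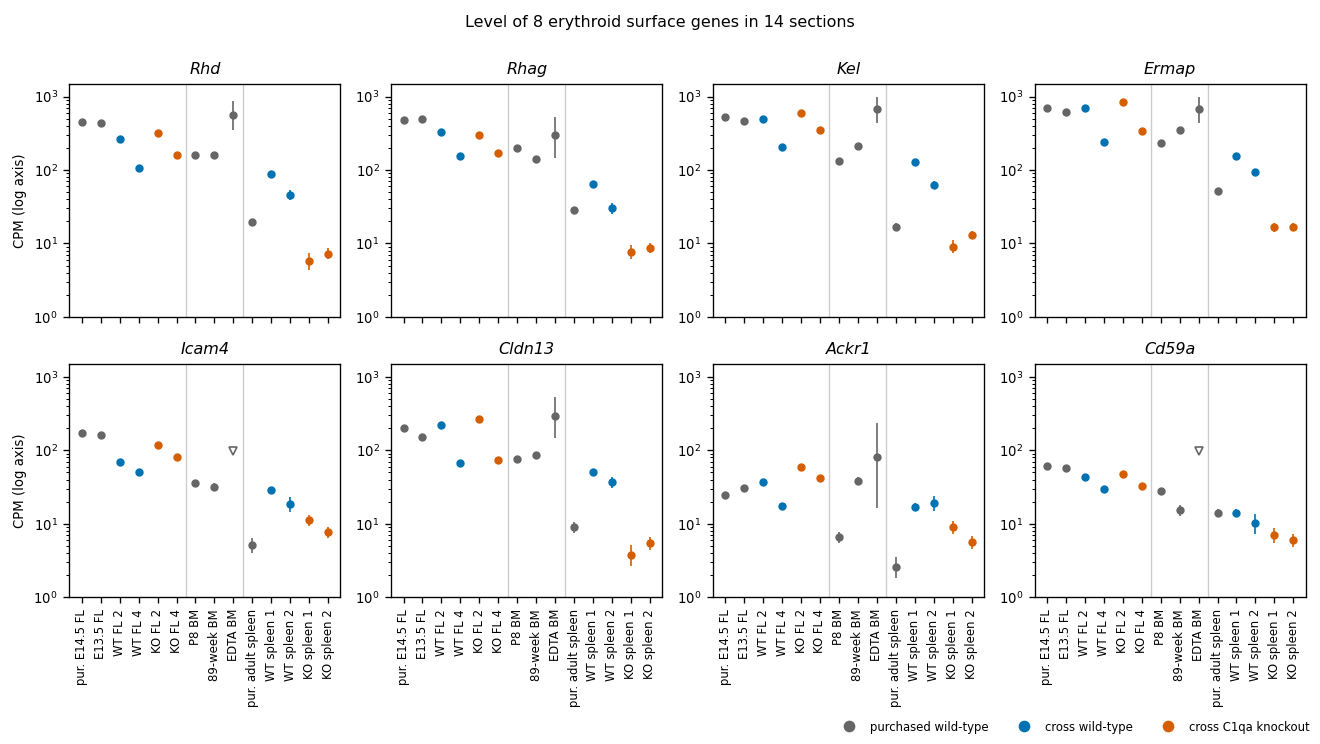
Level of each member in CPM on a log axis, 1 point per section with its 95% exact Poisson interval. An open triangle marks the upper limit of a count of 0. Knockout spleens (orange, 5.76 and 7.29 CPM for Rhd) lie below wild-type spleens (blue, 89.4 and 45.9 CPM) in every panel.

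In the order of the 10 groups, knockout spleen came last for Rhd, Rhag, Kel, Ermap and Cldn13, and for Cd59a apart from the EDTA zero. For the first 5 of these the purchased adult spleen, with its counting interval, did not overlap the knockout spleens. For Ackr1 and, apart from the EDTA zero, for Icam4, the purchased adult spleen was last and the knockout spleens stood above it. Wild-type and knockout fetal livers overlapped for 6 of 8 members, and for 4 of these (Rhd, Rhag, Ermap and Cd59a) they were neighbours in the order. Icam4 and Ackr1 were the exceptions, with both knockout livers above both wild-type livers. How many of all genes separate these livers was not counted, so nothing is read from these counts. Purchased and cross sections came from other mice and were processed with other software, so a difference between the 2 sources cannot be told apart from these. In spots that hold a mixture of cells, fewer erythroid cells and less RNA per erythroid cell cannot be told apart either.

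Restricting the livers to hepatocyte-list spots brought numbers 2 and 4 closer in 15 of 16 combinations of a member and a genotype. The exception was Icam4 in wild type, which went from 69.4 and 50.5 CPM in livers 2 and 4 to 72 and 116 CPM, so that the order turned. In such spots Ermap was at 551 CPM in wild-type liver 4, against 239.6 CPM over all its passing spots, and 727 CPM in wild-type liver 2. Rhd was at 247 CPM in wild-type liver 4 and 276 CPM in wild-type liver 2. In P8 marrow, neutrophil-list spots gave Rhag at 348 CPM, Rhd at 282 CPM, Ermap at 393 CPM, Kel at 233 CPM and Cldn13 at 127 CPM. Each of these was above the 89-week marrow value (141, 163, 356, 216 and 87.0 CPM). Over all passing spots Rhd had been level between the 2 ages, and Ermap, Kel and Cldn13 lower at P8. Ackr1 stayed lower at P8 in these spots, at 9.38 CPM against 38.7 CPM.

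Members were then compared with 11 erythroid genes (among them Alas2, Slc4a1, Klf1, Gata1, Hemgn, Epb42, Tspo2, Trim10 and Slc25a37), whose summed UMIs served as an erythroid index. Spots were split into terciles by their index share. Within the P8 section the highest tercile exceeded the lowest by 4.38 on the log2(CPM + 1) scale for Kel, 3.76 for Rhd, 1.47 for Ackr1 and 1.19 for Cd59a. Only 28.8% of its passing spots reached the neutrophil share, so these terciles need not compare marrow with marrow. Within the spleens this log2 difference was 2.09 to 4.24 for Rhd and 1.64 to 4.20 for Kel, but 0.78 to 1.65 for Icam4 and 0.49 to 1.21 for Cd59a. For Ackr1 it ran from -0.15 in knockout spleen 1 to 1.23 in the purchased adult spleen. Rhd and Kel thus varied with the erythroid genes inside every spleen, and Ackr1 and Cd59a varied less. In the purchased livers and the number 2 livers of the cross, where erythroid genes were high throughout, the range over all members was 0.05 to 0.64.

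Per 1000 UMIs of the erythroid index, Ackr1 stood at 10.8 in the 89-week marrow against 2.93 at P8. Cd59a went the other way, with 12.8 at P8 against 4.28 at 89 weeks, and its highest value was 36.7 in the purchased adult spleen. Icam4 stood at 25.2 and 26.0 in the purchased E14.5 and E13.5 livers against 9.0 at 89 weeks. In the cross spleens Rhd stood at 26.1 and 38.5 in wild type against 12.9 and 9.63 in knockout. Kel stood at 36.9 and 53.0 against 20.4 and 17.2, and Cldn13 at 14.6 and 30.8 against 8.48 and 7.24. For these 3 genes and for Rhag and Ermap both knockout values were below both wild-type values, a separation that was not set against that of all genes. Icam4 (8.34 and 15.5 against 25.0 and 10.1), Ackr1 (5.00 and 15.9 against 20.1 and 7.38) and Cd59a (4.09 and 8.54 against 15.7 and 7.89) overlapped between genotypes.

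**Figure D2:**
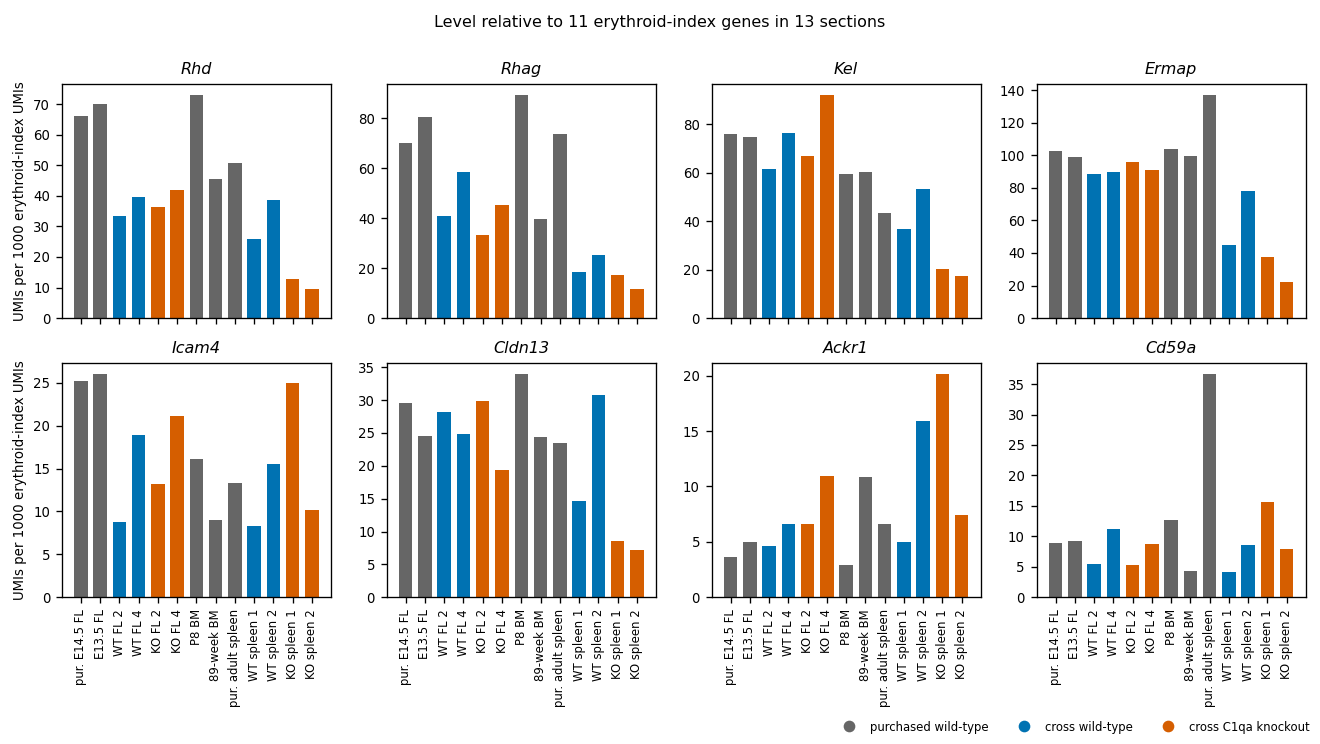
UMIs of each member per 1000 UMIs of the 11 erythroid index genes, 1 bar per section, without the EDTA section. Rhd, Rhag, Kel, Ermap and Cldn13 are lower in both knockout spleens than in both wild-type spleens (Rhd 12.9 and 9.63 against 26.1 and 38.5), while Icam4, Ackr1 and Cd59a overlap.

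The C1qa cross sets knockout against wild-type spleens and fetal livers. The study used these sections to compare the spatial correlations of cell types. It reported no overt change in fetal liver and no change in spleen. In spleen all 8 members were lower in both knockout sections than in both wild-type sections. The share of all genes that separate the sections in this way was not counted, so nothing is read from that count. The ratio of the wild-type to the knockout mean CPM was 10.4 for Rhd (67.7 against 6.52 CPM), 9.39 for Cldn13 (43.5 against 4.63), 8.62 for Kel (95 against 11), 7.37 for Ermap (124 against 16.8) and 5.73 for Rhag (47.1 against 8.23). It was smaller for Icam4 at 2.5 (23.6 against 9.41 CPM), Ackr1 at 2.48 (18.0 against 7.28) and Cd59a at 1.87 (12.1 against 6.48). The 8 genes therefore fell into 5 with large and 3 with smaller differences.

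In the fit across all 18895 genes tested (edgeR's quasi-likelihood test with TMM factors, positive values higher in knockout) the log2 fold change was -3.12 ± 0.26 (SE, n = 2 per group) for Rhd, -2.95 ± 0.24 for Cldn13, -2.84 ± 0.27 for Kel, -2.63 ± 0.22 for Ermap and -2.29 ± 0.26 for Rhag. It was -1.14 ± 0.24 for Icam4, -1.07 ± 0.25 for Ackr1 and -0.70 ± 0.26 for Cd59a. All members but Cd59a, 7 of 8, passed an adjusted p of 0.05 on the lower side, beside 6.79% of all genes called lower and 13.8% called higher. This contrast was among the values that chose the members, so nothing is read from that count. Over all genes 2603 were called higher and 1283 lower. This split depended on the scaling, with 1197 and 4400 under upper-quartile factors, 1249 and 3464 under total-count scaling and 2331 and 374 by DESeq2. Every member stayed lower under all of these.

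Other contents of the spleen sections moved with genotype. The erythroid index summed to 3434 and 1191 CPM in wild type against 445 and 757 CPM in knockout, and 10 of its 11 genes were called lower. The hemoglobin list did not separate the genotypes, at 83649 and 21254 CPM against 10648 and 25102 CPM. The neutrophil list stood at 684 and 615 CPM against 80.7 and 137 CPM, and the pancreas list was higher in both knockouts, as given above. The megakaryocyte list was lower in both knockouts, at 332 and 394 CPM against 163 and 199.8 CPM, and the white-pulp list was higher in both, at 7121 and 7073 CPM against 8700 and 7658 CPM. The endothelial list differed little, at 792 and 734 CPM against 730.4 and 648 CPM. The median log2 fold change of the members was -2.46 over all passing spots and -2.62 in red-pulp spots alone. It was -2.48 without spots in which the pancreas list reached 0.5% of UMIs. All 3 medians describe values of the kind that chose the members. The part of the neutrophil, megakaryocyte and white-pulp differences in these values was not tested. The calls over all genes depended on knockout spleen 2, as given below. Without that section the median of the members was -2.62, again over values of the kind that chose them.

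In fetal liver no gene passed the adjusted p in the same test (0% of 18986 tested, with 138 at an unadjusted p under 0.05), so no member was called. The log2 fold changes of the members had SEs of 0.67 to 1.08. They were 0.62 ± 0.75 for Ackr1, 0.54 ± 0.68 for Icam4, 0.20 ± 0.92 for Kel, 0.15 ± 0.92 for Rhd, 0.14 ± 1.06 for Ermap, 0.05 ± 1.08 for Cldn13, -0.08 ± 0.67 for Cd59a and -0.26 ± 0.85 for Rhag. All were smaller than their SE. Numbers 2 and 4 name litters, and with the litter as a block the fit called 157 genes (5 higher, 152 lower), none of them a member. In that fit Ackr1 was at 0.74 ± 0.28 and Icam4 at 0.49 ± 0.27, and the others lay between -0.22 and 0.31. Under DESeq2 12 genes were called, again no member.

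Ackr1 and Icam4 were the members whose knockout livers were higher in all 4 pairs of a knockout with a wild-type section. The share of all genes that do so was not counted, so nothing is read from that. The ratio of mean CPM, knockout over wild type, was 1.85 for Ackr1 and 1.64 for Icam4. In hepatocyte-list spots Ackr1 was still higher in 4 of 4 pairs, at 34.8 and 37.8 CPM in wild type against 51.3 and 59.9 CPM in knockout. Icam4 was higher in 3 of 4 pairs there, at 72 and 116 CPM against 108 and 120.1 CPM. With the litter block in these spots the log2 fold change was 0.36 ± 0.26 for Ackr1, 0.06 ± 0.30 for Icam4 and -0.65 ± 0.39 for Rhag. Within litters 2 and 4 the log2 ratio of CPM + 1, knockout over wild type, was 0.67 and 1.18 for Ackr1 over passing spots and 0.65 and 0.55 in hepatocyte-list spots. For Icam4 it was 0.74 and 0.66, then 0.73 and -0.10, and for Rhag -0.14 and 0.14, then -0.15 and -0.63. In the fit without the litter, leaving out 1 section, which breaks a litter pair, turned the sign of every member, for example to -1.99 without knockout liver 2 and to 1.92 without wild-type liver 2 for Cldn13.

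**Figure D3:**
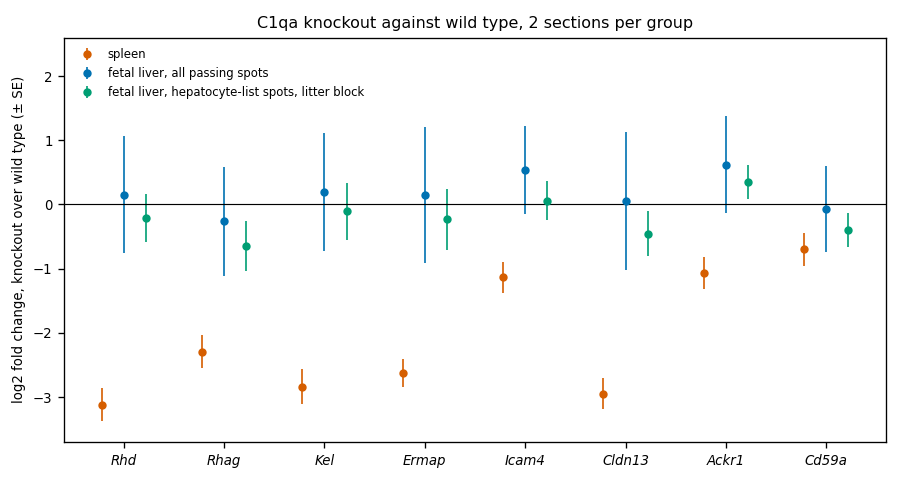
Log2 fold change of each member, knockout over wild type, with its SE, from edgeR fits on 2 sections per group. Spleen values (orange) run from -3.12 for Rhd to -0.70 for Cd59a, while fetal liver values over all passing spots (blue) lie within their SE of 0, with a smaller SE when the litter is blocked in hepatocyte-list spots (green).

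Where in the spleen the members were read was asked within sections, a contrast that the choice of members did not use. In each of the 5 spleens spots were ranked by 14 white-pulp genes against 8 red-pulp macrophage genes, none of them a member or an erythroid gene, and the 2 extreme terciles were compared with the section as a block. All 8 members rose in red-pulp spots, Ackr1 with a call that most alternative settings lost, beside 13.3% of 17878 genes called higher and 15.5% called lower. Rhd rose by 3.39 ± 0.19 on the log2 scale (edgeR's quasi-likelihood test with Benjamini-Hochberg adjustment, adjusted p = 3.06e-08, n = 5 sections), Kel by 3.31 ± 0.28 (adjusted p = 9.46e-07) and Ermap by 3.19 ± 0.18 (adjusted p = 3.06e-08). Cldn13 rose by 2.80 ± 0.22 (adjusted p = 6.06e-07) and Rhag by 2.80 ± 0.19 (adjusted p = 1.74e-07). Icam4 rose by 1.44 ± 0.18 (adjusted p = 3.45e-05), Cd59a by 1.09 ± 0.18 (adjusted p = 0.000446) and Ackr1 by 0.56 ± 0.20 (adjusted p = 0.0440). The median over the members was 2.80, against -0.01 over all genes tested.

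Rhd went from 16.0 to 206 CPM in wild-type spleen 1, from 9.94 to 111 CPM in wild-type spleen 2, from 2.52 to 12.3 CPM and 2.75 to 16.3 CPM in knockout spleens 1 and 2, and from 6.54 to 48.4 CPM in the purchased adult spleen. Kel went from 21.2 to 299.5 CPM and 8.52 to 154 CPM in wild type, from 7.01 to 17.8 CPM and 4.29 to 27.0 CPM in knockout, and from 6.70 to 40.3 CPM in the purchased adult. The ratio of red to white pulp was 12.9 and 11.2 in wild type against 4.87 and 5.92 in knockout for Rhd, and 14.1 and 18.0 against 2.54 and 6.29 for Kel. For every member but Cd59a both knockout ratios were below both wild-type ratios, a difference that was not tested or set against that of all genes. In the red-pulp spots themselves the white-pulp list stood at 3455 and 4678 CPM in wild type against 6610 and 5051 CPM in knockout. The part of this in the ratios and red-pulp levels was not tested. Even the red-pulp spots of the knockout spleens held less Rhd (12.3 and 16.3 CPM) than those of the purchased adult.

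Ackr1 stood apart. It went from 13.6 to 22.4 CPM and 16.3 to 24.8 CPM in wild type and from 1.91 to 3.69 CPM in the purchased adult, but from 10.4 to 8.00 CPM and 6.01 to 5.84 CPM in the knockouts. It was therefore higher in red pulp in 3 of 5 sections, and the other 7 members in 5 of 5. Its call was lost under 9 of 13 alternative settings, among them total-count scaling (adjusted p = 0.171) and thinned spots (adjusted p = 0.634) by edgeR. Leaving out the purchased adult spleen and using the cross sections only are the same fit, counted separately here. The endothelial list also rose, in 6 of its 9 genes, and all 11 erythroid index genes rose. The erythroid index went from 825 to 7409 CPM in wild-type spleen 1 and from 207 to 955 CPM in knockout spleen 1. Over all genes 2370 were called higher and 2776 lower, or 1749 and 4855 under total-count scaling.

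**Figure D4:**
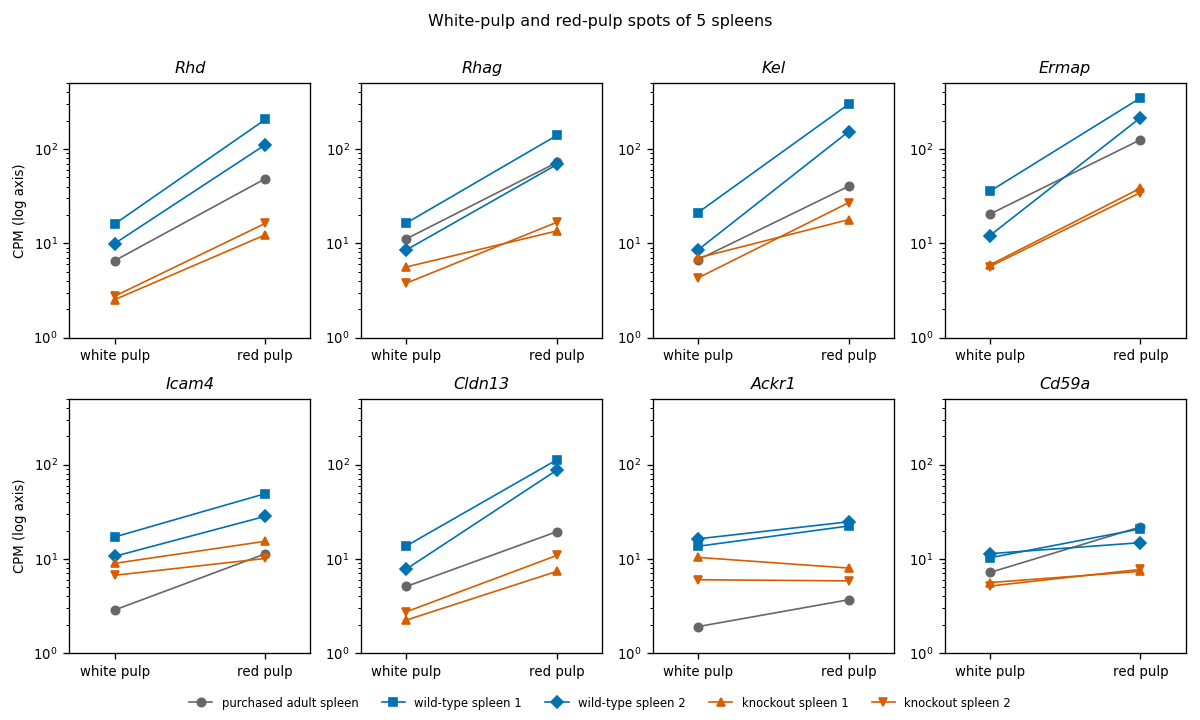
CPM on a log axis in white-pulp and red-pulp spots, 1 line per spleen. Lines for Rhd, Rhag, Kel, Ermap and Cldn13 climb in all 5 spleens (Rhd 16.0 to 206 CPM in wild-type spleen 1), and those for Ackr1 are flat or slope down in the knockouts (10.4 to 8.00 CPM and 6.01 to 5.84 CPM).

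Because an EBI holds a macrophage at its centre, spots of the 6 fetal livers were split by their share of UMIs from 11 macrophage genes (C1qa not among them), in hepatocyte-list spots only. In the tercile with the largest share 7 of 8 members rose, beside 7.81% of 12106 genes called higher and 5.29% called lower. The differences were small. Kel rose by 0.31 ± 0.05 on the log2 scale (edgeR, adjusted p = 7.09e-05, n = 6 sections), Rhd by 0.25 ± 0.04 (adjusted p = 0.000229), Ermap by 0.23 ± 0.04 (adjusted p = 0.000158) and Rhag by 0.21 ± 0.04 (adjusted p = 0.000398). Cd59a rose by 0.23 ± 0.07 (adjusted p = 0.0197), Ackr1 by 0.20 ± 0.05 (adjusted p = 0.0129) and Icam4 by 0.17 ± 0.04 (adjusted p = 0.00566). Cldn13 was at 0.11 ± 0.04 (adjusted p = 0.0711). The median over the members was 0.22, against 0.00 over all genes tested.

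Kel went from 500.4 to 528 CPM in the purchased E14.5 liver, 435 to 499.9 CPM at E13.5, 489 to 522 CPM and 396 to 557 CPM in wild-type livers 2 and 4, and 581 to 611 CPM and 425 to 537 CPM in knockout livers 2 and 4. Kel, Ermap and Rhag were higher by CPM in 6 of 6 sections, Rhd in 5, Ackr1, Cd59a and Cldn13 in 4 and Icam4 in 3. The number 4 livers gave the largest ratio for Kel, 1.41 in wild type and 1.26 in knockout. Icam4 had ratios of 0.981 to 0.998 in the 3 sections where it was not higher.

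Of the calls in this contrast, those of Cd59a, Ackr1 and Icam4 rested on the scaling. Under total-count scaling, tried after the data were seen, the median of all genes moved to -0.10, 441 genes were called higher and 3208 lower (946 and 641 before), and 4 members were still called (Kel, Rhd, Ermap and Rhag). The median over the 8 members was 0.11 there. With every spot thinned to 2000 UMIs, which leaves fewer counts, the median was 0.17 and only Kel was called, at 0.28 and an adjusted p of 0.00038 by edgeR. Over all passing spots, not only hepatocyte-list spots, the median was 0.58 and 3 of 8 members were called. Beside them 775 of 13908 genes were called higher and 497 lower. Erythroid RNA moved with the macrophage share. The erythroid index went from 6579 to 6973 CPM in the purchased E14.5 liver and from 5301 to 7124 CPM in wild-type liver 4, and 10 of its 11 genes rose. Median UMIs per spot also differed, at 51131 against 71464 in the purchased E14.5 liver but 5256 against 4954 in knockout liver 2. The part of either in the members' differences was not tested.

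**Figure D5:**
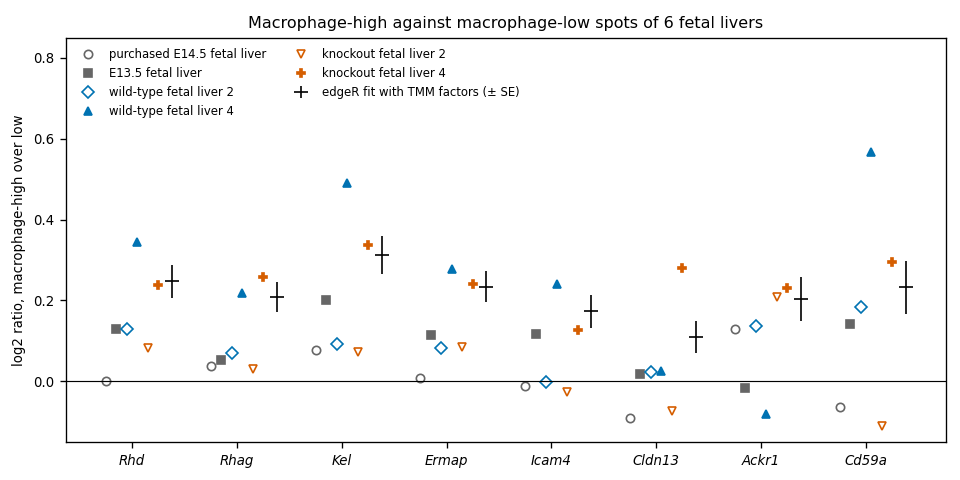
Log2 ratio of CPM + 1 of each member between macrophage-high and macrophage-low spots, 1 point per fetal liver, with the edgeR estimate and its SE in black. Most points lie above 0, those of Kel in 6 of 6 sections, and the estimates run from 0.11 for Cldn13 to 0.31 for Kel.

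Beside the members, 25 other carriers of blood group antigens were listed. In the spleen genotype contrast 3 of them rose in knockout, 7 fell and 15 did not pass the test, and their median log2 fold change was -0.29 against -0.08 over all genes. Of all genes 13.8% were called higher and 6.79% lower, so the 3 of 25 that rose were near the background. The carrier list was drawn up with earlier results of these data known, so these counts and the p-values below are a description. Slc4a1, the anion exchanger, fell by 3.16 ± 0.29 on the log2 scale (edgeR, adjusted p = 1.38e-06), from 559 and 253 CPM in wild type to 31.0 and 44.1 CPM in knockout. The water channel Aqp1 fell by 1.98 ± 0.21 (adjusted p = 6.03e-06), and the Vel antigen Smim1 fell by 1.18 ± 0.18 (adjusted p = 0.000298). Glycophorin C (Gypc) fell by 0.75 ± 0.17 (adjusted p = 0.00483). Cd55, which like Cd59a protects cells from complement but acts on the convertases, rose by 1.42 ± 0.18 (adjusted p = 5.09e-05), from 88.9 and 74.1 CPM to 165 and 199.9 CPM. Sema7a, a semaphorin, rose by 0.83 ± 0.19 (adjusted p = 0.00462) and the transporter Slc44a2 by 0.46 ± 0.16 (adjusted p = 0.0447). The Cd55, Slc4a1, Aqp1 and Smim1 calls held under all 14 alternatives and that of Slc44a2 under 5. Sema7a lost its call in red-pulp spots alone, with thinned section sums and without knockout spleen 2, and Gypc without either knockout spleen (adjusted p up to 0.155 and 0.143 by edgeR). The purchased wild-type spleen held 199 CPM of Cd55, level with the higher knockout value. It held more Sema7a (59.1 CPM) and Slc44a2 (223 CPM) than either knockout spleen.

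In the pulp contrast 16 of the 25 carriers rose in red pulp, 2 fell and 7 did not pass the test, with a median of 0.63, beside 13.3% of all genes called higher and 15.5% lower. Slc4a1, also an erythroid index gene, rose by 3.93 ± 0.22 (edgeR, adjusted p = 3.06e-08). Smim1 rose by 1.56 ± 0.16 (adjusted p = 8.86e-06), the efflux pump Abcg2 by 1.41 ± 0.15 (adjusted p = 8.78e-06) and Gcnt2, the I-branching enzyme, by 1.11 ± 0.12 (adjusted p = 7.65e-06). Sema7a fell by 0.94 ± 0.17 (adjusted p = 0.00103) and the transporter Abcc4 fell by 0.33 ± 0.09 (adjusted p = 0.0130). In the macrophage contrast 22 carriers were tested, of which 11 rose, 1 fell and 10 did not pass the test, with a median of 0.13, beside 7.81% of all genes called higher and 5.29% lower. Slc4a1 rose by 0.35 ± 0.04 (adjusted p = 7.37e-06), the hyaluronan receptor Cd44 by 0.28 ± 0.04 (adjusted p = 0.000133), Art4, the Dombrock antigen, by 0.22 ± 0.05 (adjusted p = 0.00172) and Smim1 by 0.17 ± 0.04 (adjusted p = 0.0025), the last higher by CPM in 3 of 6 sections. The calls of Art4 and Smim1 were lost under total-count scaling. Bcam, the Lutheran antigen and a laminin receptor, fell by 0.58 ± 0.09 (adjusted p = 0.000137) and was lower in all 6 sections.

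Icam4 binds integrins, and 12 genes of island adhesion were listed with it. In knockout spleen 5 of them rose, none fell and 7 did not pass the test, with a median of 0.41, beside 13.8% of all genes called higher and 6.79% lower. The adhesion list too was drawn up with earlier results known, so these counts and the p-values below are a description. Itgav, the integrin chain known to bind Icam4, rose by 1.05 ± 0.18 (edgeR, adjusted p = 0.00055), from 30.1 and 37.9 CPM to 58.9 and 56.6 CPM. Maea, an island attachment protein, rose by 0.81 ± 0.18 (adjusted p = 0.00386), Vcam1 by 0.64 ± 0.18 (adjusted p = 0.0180), Itgal by 0.64 ± 0.19 (adjusted p = 0.0217) and Itgb1 by 0.57 ± 0.17 (adjusted p = 0.0252). All 5 calls were lost without knockout spleen 2 (Itgav at an adjusted p of 0.0521 and Maea at 0.128 by edgeR), and the last 3 also under upper-quartile and total-count scaling. Itgal lost its call without wild-type spleen 1 as well. The purchased wild-type spleen held more Itgav (66.7 CPM), Maea (92.5 CPM), Vcam1 (307 CPM) and Itgal (210 CPM) than either knockout spleen. For Itgb1 it was below both (176 CPM against 194 and 217 CPM). Vcam1 helped to define both kinds of spot and is left out there. In red pulp 6 of the other 11 rose, 1 fell and 4 did not pass the test, with a median of 0.33, beside 13.3% of all genes called higher and 15.5% lower. Those that rose included the platelet integrin chain Itga2b by 2.22 ± 0.13 (adjusted p = 4.29e-08), Itgam by 1.13 ± 0.14 (adjusted p = 4.33e-05), Itgb3 by 0.98 ± 0.09 (adjusted p = 1.68e-06) and Sirpa by 0.78 ± 0.08 (adjusted p = 3.73e-06), while Maea fell by 0.32 ± 0.09 (adjusted p = 0.0116). In macrophage-high liver spots 6 of the 11 rose, 1 fell and 4 did not pass the test, with a median of 0.21, beside 7.81% of all genes called higher and 5.29% lower. Sirpa, a macrophage receptor, rose there by 0.57 ± 0.05 (adjusted p = 2.31e-07), Itgb3 by 0.41 ± 0.05 (adjusted p = 4.90e-06), Itga2b by 0.34 ± 0.05 (adjusted p = 2.46e-05) and Cd47, the ligand of Sirpa, by 0.21 ± 0.04 (adjusted p = 0.00019). Maea fell by 0.14 ± 0.05 (adjusted p = 0.0480), a call lost under 11 of 15 alternatives. In the fetal liver genotype contrast none of these carriers or adhesion genes was called.

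Across the 13 sections with at least 50 passing spots, members were set beside 10303 genes by Pearson's r of log2(CPM + 1). The sections share tissues, source and depth, so r is given as a description. Rhd was most like Tspo2 (0.989), Hemgn (0.989) and Ermap (0.988), and Rhag most like Hemgn (0.992), Tspo2 (0.986) and Rhd (0.985). Among the genes most like Kel was Ank1 (0.993), of the red cell skeleton. Ermap was most like Car2 (0.991), Tspo2 (0.990) and Rhd (0.988), and among the genes most like Cldn13 were Ermap (0.987) and Kel (0.983). The other 3 members had other neighbours. Icam4 was most like Art4 (0.979), Ankrd9 (0.977) and Apol8 (0.976), Ackr1 like Tubb4b (0.979), Pif1 (0.955) and Tac2 (0.947), and Cd59a like the lactate transporter Slc16a1 (0.992), Mns1 (0.981) and 1700037H04Rik (0.978). Between members r ran from 0.60 for Ackr1 with Cd59a to 0.99 for Rhd with Ermap.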

How the data were processed

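Visium libraries of 14 mouse sections were used, 1 per section. The authors deposited matrices of UMI counts that were not normalized, produced with Space Ranger on mm10 per the labels. Barcode, gene and position files, also deposited, have spot and gene names, the in-tissue mark and coordinates on the slide, which are other values. Tables of the cross hold 19465 genes and in-tissue spots alone, and those of the purchased sections 32589 features and spots off tissue as well. The members and gene lists were chosen with earlier results of these data known.

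Spots in tissue with at least 1000 detected genes were kept, and counts were summed per section (37167 to 56182915 UMIs) and divided by the section total to give CPM. Log2 values of CPM outside the fits used a pseudocount of 1. A count of 0 was read against a floor of 3 counts, and intervals are exact Poisson at 95%, covering counting error only. Contrasts used edgeR 4.0.16 in R 4.3.3 (glmQLFit and glmQLFTest, TMM factors, filterByExpr, Benjamini-Hochberg adjustment over all genes, threshold 0.05) on sums per section, or per section and region (terciles of spots) with the section as a block. The SE of a log2 fold change was its size divided by the square root of F. The script was tested on simulated counts. Genotype contrasts give members no p, since their choice rested on them. Replicates of the cross are separate sections of a group, which the labels do not tie to single mice, so p-values measure the spread between these sections. No 2 replicate sections were duplicates (lowest chi-square per degree of freedom 21.8).

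Fetal livers with the same number came from the same litter per the study's supplement, and their deviations from the group means correlated (r = 0.644 over 18986 genes). The litter was therefore also fitted as a block. Alternatives were RLE and upper-quartile factors, DESeq2 1.42.0, no low-count filter, leaving out each section, the replicate block, other spot sets, quartiles and thinning to 2000 UMIs per spot or to the lowest section total. Total-count scaling was added after the data were seen.

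Named genes were the 8 members, at most 5 genes per direction with the smallest adjusted p from the lists of other carriers and adhesion partners, and the 3 genes most like each member among those with a mean of at least 10 CPM. Promoters came from RefSeq GRCm38.p6. Some genes that these rules name are not reported here. Images were not used.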

Additional observations from a re-analysis of the deposited data

Results flagged for a closer look

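Of 32 values tested for a sample far from the others in 16 groups of 5 or 6 sections, 1 stood out, and chance would flag about 1 in 20 groups. The log2 ratio of CPM + 1 of Cldn13 between macrophage-high and macrophage-low spots was 0.279 in knockout fetal liver 4, against 0.0249 in the nearest of the other 5 sections. The gap was 0.688 of the whole range, above Dixon's critical value of 0.625 for n = 6.

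Icam4 and Ackr1 were lower in both knockout spleens but higher in both knockout fetal livers than in wild type, and this difference between tissues was not tested. The ratio of mean CPM, knockout over wild type, was 1.64 in fetal liver and 0.399 in spleen for Icam4. For Ackr1 it was 1.85 in fetal liver and 0.403 in spleen. Every knockout section lay on the same side in each tissue. How many of all genes separate in this way was not counted, so nothing is read from that. Values of this kind also chose the members. In hepatocyte-list spots the liver ratio was 1.21 for Icam4, higher in 3 of 4 pairs, and 1.53 for Ackr1, higher in 4 of 4, and no liver fit called either gene.

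Members were also counted in spots outside the tissue, which no comparison used. Their summed level there was 2499 CPM in the purchased E14.5 liver (2630.1 CPM in tissue), 2352 CPM at E13.5 (2421 CPM in tissue), 763 CPM in P8 marrow (868 CPM in tissue), 1065 CPM in 89-week marrow (1049 CPM in tissue) and 1763 CPM in the EDTA section (1818 CPM in tissue). In the purchased adult spleen it was 227 CPM outside against 148 CPM in tissue. There the members had 40.9% of their UMIs outside, against 31.1% of all UMIs, whereas in the other 5 purchased sections the 2 shares differed by under 3 percentage points. In the 89-week marrow the shares were 50.2% of member UMIs and 49.9% of all UMIs, none of which entered the levels above.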

How the results depend on the processing

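Over all genes the spleen genotype contrast called 3886, and 240 to 4972 when a section was left out, the lowest without knockout spleen 2. The replicate block called 4968, and the spleen numbers do not pair sections (r = 0.0276). In fetal liver the 0 calls became 0 to 109 when a section was left out, 12 by DESeq2, 15 under total-count scaling, 157 with the replicate block (litter), 1 in hepatocyte-list spots only and 27 with the replicate block in these spots. The pulp contrast called 5146, 3923 to 4715 when a section was left out and 2646 with spots thinned. The macrophage contrast called 1587, 1164 to 1504 when a section was left out, 786 by DESeq2, 3649 under total-count scaling and 157 with spots thinned. Thinning leaves fewer UMIs, and total-count scaling moved the median of all genes to -0.34 in the spleen genotype contrast, 0.22 in the liver, -0.21 in the pulp and -0.10 in the macrophage contrast. Upper-quartile factors moved it to -0.37 in the spleen genotype contrast. The cause of the other changes was not tested.

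No member reversed where it was called. Of 104 pulp values 9 lost the call, all of Ackr1, whose adjusted p by edgeR or DESeq2 reached 0.634. Leaving out the purchased adult spleen, wild-type spleen 1 or 2 or knockout spleen 2 was enough. The fit on cross sections only is the same as that without the purchased adult spleen, so its loss is counted again. Of 120 macrophage values 18 lost the call and 1, Cldn13 without the purchased E14.5 liver, gained it. Cd59a lost its call without the E13.5 liver (adjusted p = 0.0689), wild-type liver 4 (0.0840) or knockout liver 4 (0.0511). With spots thinned the calls of Abcc4 and Maea in the pulp contrast and of Cd44, Art4, Smim1, Sirpa and Itga2b in the macrophage contrast were lost. Those of Art4 and Smim1 were also lost under total-count scaling, and that of Smim1 with all passing spots. The member counts limit precision in the knockout spleens and in the EDTA section, where 3 counts equal 80.7 CPM.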
